A study of Homo sapiens with 4 samples.

Results

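ELF3 and 9 other genes of the ETS family of transcription factors were followed in 786-O, an established line from a human renal carcinoma of the clear cell type without working VHL. The genes were ELF3, EHF, ELF1, ELF2, ELF4, ETS1, ETS2, GABPA, ETV6 and ERF, taken by symbol from a table of 59409 gene symbols, and all 10 were found in it. They were chosen by their family and with their TPM differences between these same 4 libraries already known, so those differences are given as a description and no p-value is attached to them. The table holds 29 ETS family symbols, and the other 19 served for comparison. The study set 2 libraries of polyadenylated RNA from negative control cells (genotype WT, with Cas9 in their column names) beside 2 libraries from DEK KO cells, which lack an intact gene for DEK, a chromatin protein with histone chaperone activity. A Cas9-expressing clone was first made with LentiCas9-Blast virus, and the knockout clones were obtained from Cas9-expressing cells with LentiGuide-Puro virus carrying DEK guides and single-cell sorting. Which clone a knockout library represents, and whether libraries of a group were grown separately, is not stated, so p-values reflect no more than how far these libraries scatter, which may be technical. Levels are TPM, transcripts per 1000000, which are corrected for gene length and can be compared between genes.

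ETS factors share a DNA-binding region, the ETS domain, that recognises sequences around a GGAA core. Flanking bases, partner proteins and phosphorylation influence which factor acts at a given site. ELF3 and EHF are largely restricted to epithelia, where they take part in differentiation, whereas ELF1, ELF2, ELF4, ETS1, ETS2 and GABPA are found in many cell types. ETV6 and ERF act mainly as repressors, and ERF leaves the nucleus when it is phosphorylated by ERK.

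The start regions of 3 genes are printed because ELF3 had the lowest knockout level relative to control of the 9 genes that could be tested, ETV6 the highest, and GABPA an extended form of the ETS core. Each window runs from 250 bases before to 50 bases after a start site of RefSeq (GRCh38.p14). RefSeq starts can differ from the gene bounds of GENCODE release 29, which are used for all other coordinates. Windows were found for 9 of the 10 genes, 18 windows in all. Capitals mark the ETS core, GGAA or its reverse complement TTCC, and the TATA box sequence TATAAA.
ELF3, chr1:202010337-202010636, plus strand: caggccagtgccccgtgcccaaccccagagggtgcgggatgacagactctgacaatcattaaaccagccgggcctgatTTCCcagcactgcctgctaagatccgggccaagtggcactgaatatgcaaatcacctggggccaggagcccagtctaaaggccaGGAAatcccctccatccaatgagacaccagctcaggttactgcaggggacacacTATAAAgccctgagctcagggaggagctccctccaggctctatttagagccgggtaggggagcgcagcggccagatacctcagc
ETV6, chr12:11649424-11649723, plus strand: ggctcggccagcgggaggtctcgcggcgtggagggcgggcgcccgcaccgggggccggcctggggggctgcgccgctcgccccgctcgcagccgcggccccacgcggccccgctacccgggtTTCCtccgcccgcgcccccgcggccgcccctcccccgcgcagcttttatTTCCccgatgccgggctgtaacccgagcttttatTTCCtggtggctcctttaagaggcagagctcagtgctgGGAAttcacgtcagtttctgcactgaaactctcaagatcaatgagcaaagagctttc
GABPA, chr21:25734722-25735021, plus strand: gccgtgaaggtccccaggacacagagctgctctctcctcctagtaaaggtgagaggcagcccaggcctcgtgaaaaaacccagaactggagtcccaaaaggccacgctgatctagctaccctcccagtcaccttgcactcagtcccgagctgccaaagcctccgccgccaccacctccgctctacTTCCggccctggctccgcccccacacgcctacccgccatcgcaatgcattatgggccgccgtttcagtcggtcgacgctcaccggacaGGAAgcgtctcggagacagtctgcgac

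The ELF3 window held 2 ETS cores, at -172 and -88 from the start site, and TATAAA at -34. Positions give the leftmost base of a match. The ETV6 window held 4 cores and no TATAAA, and its GC content was 69.0%, against 59.0% for ELF3. GABPA had 2 cores, and the one at -65 was part of CCGGAA on the minus strand. Over both strands, 15 of the 18 windows held GGAA, 1 held CCGGAA and 3 held TATAAA. Among 35116 windows of the same length over all genes the shares were 95.5%, 17.2% and 11.5%. CCGGAA contains GGAA, so these counts overlap. The matches describe letters only and do not show binding.

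DEK mRNA, targeted by the guides, measured 95.02 and 76.3 TPM in the controls, 31.4 TPM in knockout 1 and 15.7 TPM in knockout 2 (log2 fold change -1.89, SE 0.33, limma adjusted p = 0.0304). Without control 1 or control 2 that adjusted p was 0.139 or 0.103. Depth, estimated from the steps between low TPM values, was 35.8 to 40.1 in units of 1000000 reads. Of 15815 genes tested, 17.7% were called at an adjusted p under 0.05, 1433 higher and 1371 lower in the knockout. With scaling by the median ratio the split was 1588 higher and 955 lower. The renal markers PAX8 (140.1 to 160.4 TPM) and VIM (7215 to 8346 TPM) were present in every library, and of the 6 renal markers KRT18 rose and PAX2 fell. No leukocyte marker exceeded 0.786 TPM and no endothelial marker 0.0556 TPM, while the 4 fibroblast markers summed to 1.495 to 2.36 TPM. In bulk RNA, fewer cells that express a gene and less RNA per cell cannot be told apart.

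By the call over all genes, 2 of the 10 ETS genes were higher in the knockout (ETV6 and ETS1) and 2 were lower (ELF3 and ELF1), where 9.06% of all tested genes were called higher and 8.67% lower. ELF2, ELF4, ETS2, GABPA and ERF were not called. EHF did not reach 1 TPM in 2 libraries, the minimum for a test. All 4 calls were lost when control 1 or control 2 was left out, when no minimum was set and at a threshold of 0.01. Over all genes the share called was then 0.307% without control 1, 0.333% without control 2, 0.0831% with no minimum and 0.569% at the stricter threshold. Without knockout 1, 7 of the 9 tested genes were called, 3 higher and 4 lower, in a fit that called 36.4% of all genes. In each fit that leaves out a library, 1 group has a single library, which is assumed to vary like the other group.

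**Figure D1:**
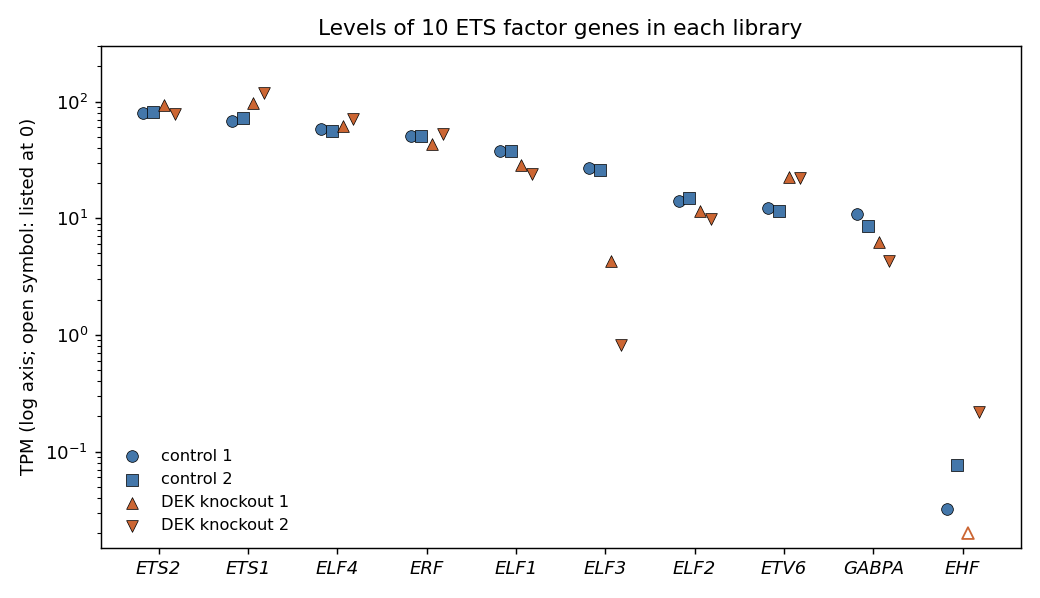
TPM (log axis) of the 10 ETS genes, ordered by control mean; circles and squares are controls 1 and 2, upward and downward triangles DEK knockouts 1 and 2, and an open symbol is a value listed at 0. ELF3 drops from 27.1 and 26.1 TPM to 4.32 and 0.825 TPM, ETV6 moves from 12.2 and 11.6 TPM to 22.5 and 22.3 TPM, and EHF stays at or below 0.217 TPM.

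ELF3, an epithelial ETS factor that inflammatory cytokines can also induce, showed the widest difference. Its gene lies on chromosome 1 from 202007945 to 202017188 on the plus strand. It measured 27.1 TPM in control 1, 26.1 TPM in control 2, 4.32 TPM in knockout 1 and 0.825 TPM in knockout 2. The groups did not overlap, and the knockouts lay further apart than the controls. Means were 26.6 ± 0.706 TPM in control and 2.57 ± 2.47 TPM in knockout cells (SD, n = 2 per group), 10.3-fold lower (log2 fold change -3.15, SE 0.51). Knockout 1 was 6.16-fold and knockout 2 32.2-fold below the control mean. DEK mRNA was likewise lower in knockout 2 than in knockout 1. Only 4 of the 15815 tested genes, ELF3 included, had so low a log2 fold change. With exon lengths from the annotation, these levels correspond to roughly 1970, 1968, 288 and 62 reads.

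EHF, a close relative of ELF3 and likewise epithelial, was nearly undetected. Its TPM values were 0.0319 in control 1, 0.0768 in control 2, 0 in knockout 1 and 0.217 in knockout 2. The smallest whole read numbers in these proportions are 2, 5, 0 and 14. The lowest and the highest value were both from knockouts, so the groups overlapped. Among 6 tested genes within 500 kb of EHF (chromosome 11, 34621093 to 34661057), CD44 and ABTB2 rose and APIP fell. Of all tested genes, 9.06% rose and 8.67% fell. CD44, a hyaluronan receptor gene, went from 53.2 and 51.9 TPM to 277.1 and 493.8 TPM (limma adjusted p = 0.0143).

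A pair of transcripts that overlap ELF3 was low beside it. ELF3-AS1, a noncoding RNA on the opposite strand whose gene reaches into the printed ELF3 window, had 2.69 and 2.75 TPM in control and 1.77 and 1.49 TPM in knockout cells (log2 fold change -0.50, SE 0.17, limma adjusted p = 0.106). AL691482.3, inside ELF3 and on its strand, had 1.20 and 1.06 TPM in control and 0.218 and 0.0972 TPM in knockout cells (-0.88, SE 0.21, limma adjusted p = 0.0525). Neither passed the test, though both knockouts were below both controls. Whether strand was used in counting is not given in the sources used here, so reads of ELF3 and of these genes cannot be told apart.

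Around ELF3, 16 genes within 500 kb were tested. NAV1 and CSRP1 rose (log2 fold changes 0.71 and 0.46), IPO9 fell (-0.48), and the median was -0.041, against -0.058 over all tested genes. Of all tested genes, 17.7% were called. RNPEP, an aminopeptidase gene that ends shortly before ELF3 starts, had 184.6 and 180.3 TPM in control and 139.7 and 107.7 TPM in knockout cells (-0.57, limma adjusted p = 0.0505). The median log2 fold change over chromosome 1 was -0.17. With each chromosome's median removed, ELF3 stood at -2.98.

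**Figure D2:**
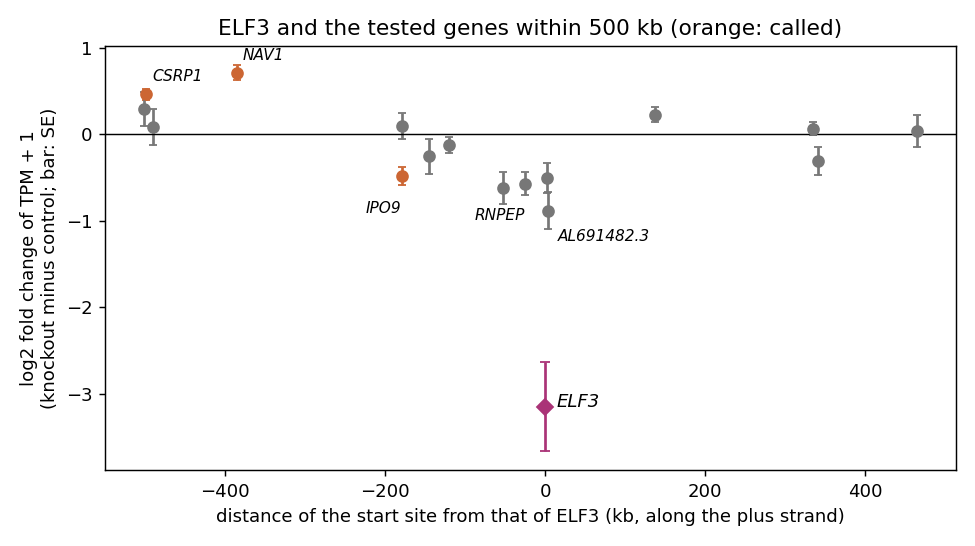
Log2 fold change of TPM + 1 (knockout minus control, bars are SE) of ELF3 (diamond) and of 16 tested genes within 500 kb (circles, orange where called), by the distance of their start sites in kb. The neighbours lie between -0.88 and 0.71, and ELF3 lies at -3.15.

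ELF1, ELF2 and ELF4 form a subfamily best known from blood cells. ELF1 (chromosome 13, 40932028 to 41061440, minus strand) measured 37.8 TPM in control 1, 37.9 TPM in control 2, 28.4 TPM in knockout 1 and 23.7 TPM in knockout 2. Both knockouts lay below the nearly equal controls. Means were 37.8 ± 0.0913 and 26.1 ± 3.31 TPM (SD, n = 2), 1.45-fold lower (log2 fold change -0.52, SE 0.11). ELF1 transcripts are poor in GC, at 38.1% against a median of 48.6% over tested genes. With the GC trend of each library removed the log2 fold change was -0.18, and the call was lost there, after scaling by the median ratio or by quantiles, with a single prior variance and with each chromosome's median removed.

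ELF2 (chromosome 4, 139028112 to 139177218, minus strand) measured 14.2 and 14.8 TPM in controls 1 and 2, 11.6 TPM in knockout 1 and 9.85 TPM in knockout 2. The groups did not overlap, but with a log2 fold change of -0.41 (SE 0.13) it was not called, and with the GC trend removed it stood at -0.11. ELF4 (chromosome X, 130064874 to 130110716, minus strand) had 57.9 and 55.7 TPM as control values, 61.7 TPM in knockout 1 and 71.2 TPM in knockout 2. It was the only gene of the subfamily with both knockouts above both controls, and it was not called (log2 fold change 0.22, SE 0.097). Of 15 alternatives, ELF2 and ELF4 were called in 1 each, without knockout 1, at -0.51 and 0.32. The 3 genes summed to 109.9 and 108.4 TPM in control and 101.7 and 104.8 TPM in knockout cells.

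ETS1 and ETS2, close relatives whose activity ERK raises by phosphorylation, were the most abundant of the 10. ETS1 (chromosome 11, 128458761 to 128587558, minus strand) measured 68.4 TPM in control 1, 72.4 TPM in control 2, 97.9 TPM in knockout 1 and 119.6 TPM in knockout 2. Both knockouts were above both controls. Means were 70.4 ± 2.87 and 109 ± 15.3 TPM (SD, n = 2), 1.54-fold higher (log2 fold change 0.61, SE 0.12). The call was lost with a single prior variance, and with the GC trend removed the log2 fold change was 0.78.

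ETS2 (chromosome 21, 38805307 to 38824955, plus strand) measured 79.2 and 81.4 TPM in controls 1 and 2, 92.9 TPM in knockout 1 and 78.3 TPM in knockout 2. The controls lay between the knockouts, and with a log2 fold change of 0.086 (SE 0.10) it was not called. Without knockout 1 the value was -0.036. KCNJ15, a potassium channel gene, was the only called one of 4 tested genes within 500 kb of ETS2 and rose from 0.452 and 0.176 TPM to 4.175 and 5.995 TPM (limma adjusted p = 0.0157). It passed the minimum only through the knockouts. Of all tested genes, 17.7% were called.

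GABPA encodes the DNA-binding subunit of GABP, which pairs with GABPB1 or GABPB2 and drives many nuclear genes for mitochondria. The gene (chromosome 21, 25734570 to 25772460, plus strand) measured 10.98 TPM in control 1, 8.65 TPM in control 2, 6.30 TPM in knockout 1 and 4.30 TPM in knockout 2. The groups did not overlap, but relative to their mean the controls lay further apart than for any other of the 9 tested genes. Means were 9.82 ± 1.64 and 5.30 ± 1.42 TPM (SD, n = 2), 1.85-fold lower (log2 fold change -0.79, SE 0.22), and GABPA was not called. It was called without knockout 1, at -1.02. Its transcripts are poor in GC (36.4%), and with the GC trend removed the value was -0.40. ATP5PF, an ATP synthase subunit gene that overlaps the start of GABPA on the opposite strand, had 105.2 and 107.1 TPM in control and 86.6 and 92.4 TPM in knockout cells (-0.24, limma adjusted p = 0.0756).

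The repressor genes ETV6 and ERF differed in their values. ETV6, often rearranged in leukaemia (chromosome 12, 11649854 to 11895402, plus strand), measured 12.2 TPM in control 1, 11.6 TPM in control 2, 22.5 TPM in knockout 1 and 22.3 TPM in knockout 2. Values within each group were close, and the groups were far apart. Means were 11.9 ± 0.406 and 22.4 ± 0.162 TPM (SD, n = 2), 1.88-fold higher (log2 fold change 0.86, SE 0.098). Over 15 alternatives the log2 fold change lay between 0.83 and 0.93, and 11 of them kept the call. Of 6 tested genes within 500 kb of ETV6, SMIM10L1 and MIR1244-4 fell and none rose. Over all tested genes 8.67% fell and 9.06% rose. MIR1244-4, a short gene (12111952 to 12112036), had 2.33 and 3.36 TPM in the controls and was listed at 0 in both knockouts. This gene passed the minimum only through the controls, and its read numbers were not estimated.

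ERF (chromosome 19, 42247572 to 42255157, minus strand) measured 50.5 and 50.6 TPM in controls 1 and 2, 42.97 TPM in knockout 1 and 52.7 TPM in knockout 2. The nearly equal controls lay between the knockouts. With a log2 fold change of -0.086 (SE 0.12) it was not called, and without knockout 1 the value was 0.058. Of 19 tested genes within 500 kb of ERF 1 rose, the cell adhesion gene CEACAM1, and 2 fell, PSG3 and PSG8. The share called over all tested genes was 17.7%. CEACAM1 passed the minimum only through the knockouts and PSG8 only through the controls. PSG3 and PSG8 belong to a family of near-identical copies between which reads may be split.

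For 7 of the 10 genes both knockouts lay on the same side of both controls, 4 lower and 3 higher. Over all tested genes that share was 68.3%, with 39% lower and 29.2% higher. In 6 of the 7, all but ETV6, knockout 2 was further from the control mean than knockout 1, and over all tested genes with separate groups 68.9% were. In the controls the levels ran in the order ETS2, ETS1, ELF4, ERF, ELF1, ELF3, ELF2, ETV6, GABPA and EHF, and no neighbours in that order overlapped. In the knockouts the order was ETS1, ETS2, ELF4, ERF, ELF1, ETV6, ELF2, GABPA, ELF3 and EHF, and only GABPA and ELF3 overlapped. Within a library, the level of ETS1 was 2.52 and 2.78 times that of ELF3 in the controls, 22.7 times in knockout 1 and 145.0 times in knockout 2. ETV6 stood at 0.859 and 0.782 times ELF2 in the controls but at 1.94 and 2.26 times after knockout.

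Summed over the 29 family symbols, ETS transcripts reached 469.0 and 460.9 TPM in control and 521.1 and 567.1 TPM in knockout cells. ELF3 held 5.77% and 5.66% of that sum in the controls, 0.828% in knockout 1 and 0.145% in knockout 2. In rank it was number 7 of the family in both controls, 15 in knockout 1 and 17 in knockout 2. ETS1 held 14.6% and 15.7% in the controls, 18.8% in knockout 1 and 21.1% in knockout 2. The 10 genes together held 76.4% and 77.9% in the controls, 70.7% in knockout 1 and 67.5% in knockout 2. In TPM their sum was 358.2 and 359.3 in control and 368.5 and 383.0 in knockout libraries.

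**Figure D3:**
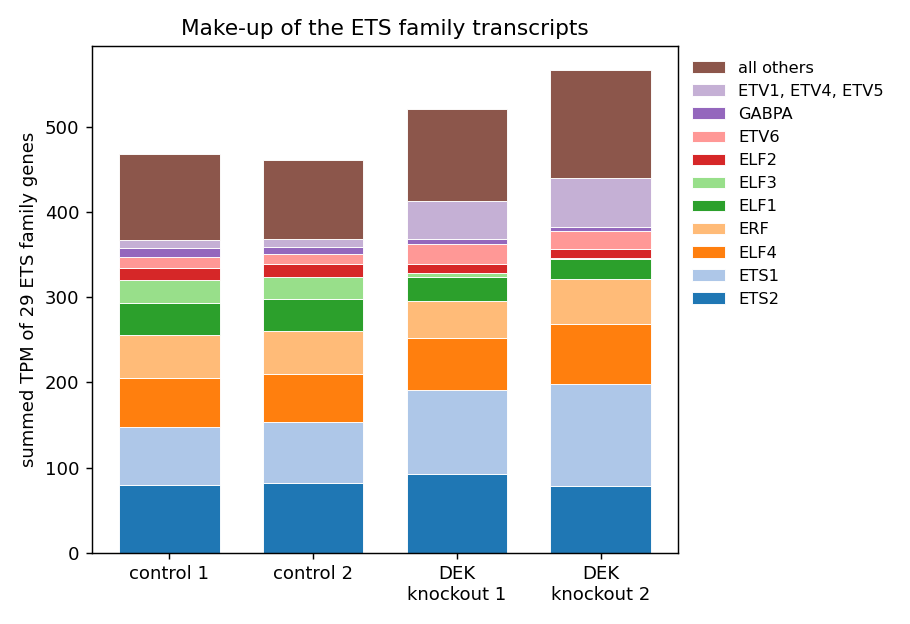
Summed TPM of the 29 ETS family genes in each library, stacked by gene, with ETV1, ETV4 and ETV5 as 1 band and the remaining genes on top. The totals are 469.0 and 460.9 TPM in the controls and 521.1 and 567.1 TPM in the knockouts, the ELF3 band shrinks from 5.77% and 5.66% to 0.828% and 0.145%, and the band of ETV1, ETV4 and ETV5 widens from 2.0% and 2.02% to 8.62% and 10.2%.

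Among the other 19 family genes 8 were tested, of which 3 rose and none fell, where 9.06% of all tested genes rose and 8.67% fell. The 3 that rose were the PEA3 factors ETV1, ETV4 and ETV5, known as targets of ERK signalling. ETV4 went from 0.219 and 0.316 TPM to 7.67 and 11.96 TPM (log2 fold change 3.07, SE 0.25, limma adjusted p = 0.0111), and passed the minimum only through the knockouts. Over the other 7 tested genes the median log2 fold change was 0.18, with 2 that rose, against 0.48 over all 8. ETV5 went from 7.97 and 7.69 TPM to 34.1 and 40.6 TPM (2.11, SE 0.12, limma adjusted p = 0.00812). ETV1 went from 1.2 and 1.31 TPM to 3.15 and 5.04 TPM (1.16, SE 0.24, limma adjusted p = 0.0404). In all 3 genes both knockouts were above both controls. Without control 1 or control 2 only ETV5 kept its call, while ETV4 stood at 3.01 and 3.12 and ETV1 at 1.115 and 1.20. Without knockout 2 ETV5 stood at 1.99 and kept its call, and ETV1 stood at 0.89 and lost it. ETV4 did not reach the minimum with either knockout left out, so it was not tested there.

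The other 5 tested family genes were not called. ELK3, a cofactor of SRF that responds to ERK, had 23.6 and 20.3 TPM in control and 30.5 and 47.7 TPM in knockout cells (log2 fold change 0.77, limma adjusted p = 0.0774). ELK4, of the same subfamily, had 13.6 and 10.6 TPM in control and 9.40 and 5.70 TPM in knockout cells (-0.64, limma adjusted p = 0.139). Log2 fold changes were 0.15 for ELK1, 0.18 for ETV3 and -0.12 for ETV2. Of the 11 genes not tested, ELF5, ETV3L, FLI1 and SPIC were listed at 0 in all 4 libraries. ELF5 lies near EHF and FLI1 near ETS1 on chromosome 11. SPDEF, another epithelial ETS factor, had 0.103 and 0.0996 TPM in the controls, 0.394 TPM in knockout 1 and 0.401 TPM in knockout 2, or about 2, 2, 7 and 8 reads.

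**Figure D4:**
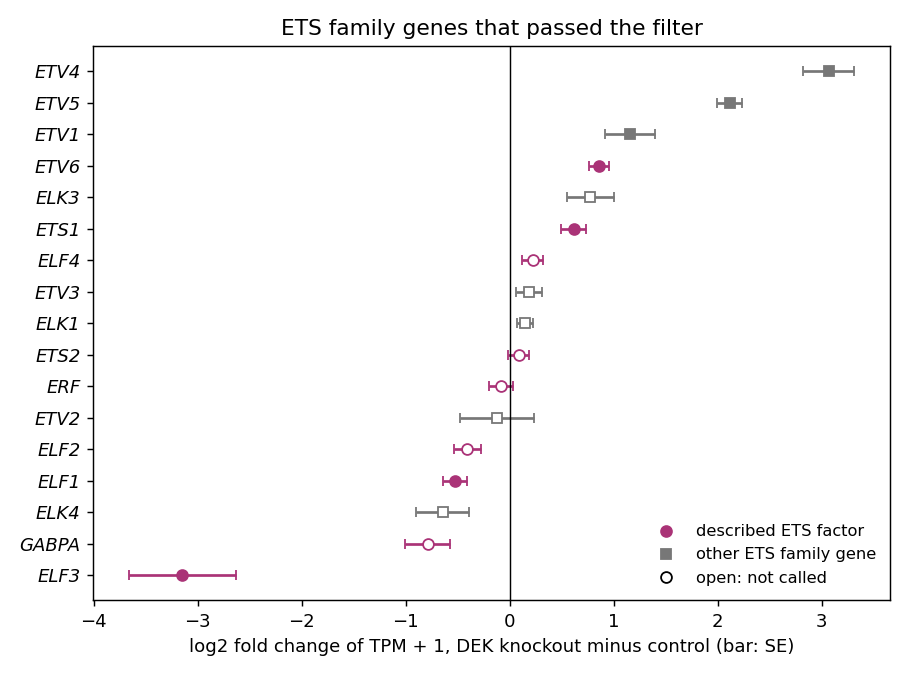
Log2 fold change of TPM + 1 (knockout minus control, bars are SE) of the 17 ETS family genes that could be tested; circles are the ETS genes described here, squares the other family genes, and open symbols were not called. ELF3 is lowest at -3.15, the next is GABPA at -0.79, and ETV4 is highest at 3.07.

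Of 16 partners and cofactors of ETS factors 15 were tested, 1 rose and 2 fell, and the median log2 fold change was -0.18. The share called over all tested genes was 17.7%, so the count does not set this list apart. RUNX1, which binds DNA together with ETS1, rose from 14.01 and 14.8 TPM to 22.5 and 23.1 TPM (0.63, limma adjusted p = 0.0238). HCFC1, a cofactor of GABP, fell from 63.0 and 60.1 TPM to 43.96 and 44.5 TPM (-0.47, limma adjusted p = 0.0259). CREBBP, a histone acetyltransferase and a coactivator of ETS1, fell from 33.8 and 31.2 TPM to 23.9 and 20.6 TPM (-0.53, limma adjusted p = 0.0418). GABPB1, the partner of GABPA, had 11.65 and 10.1 TPM in control and 8.76 and 7.92 TPM in knockout cells (-0.35, limma adjusted p = 0.133).

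Genes known as targets of these factors in other settings were listed from general knowledge. Of 17 listed for ELF3 8 were tested, 5 rose and none fell, and the median log2 fold change was 1.23. Over all tested genes 9.06% rose and 8.67% fell. PTGS2, CCL20, MMP13 and KRT4 passed the minimum only through the knockouts, and over the other 4 the median was 0.56, with 2 that rose. TGFBR2, a TGF-beta receptor gene that ELF3 can activate, rose from 25.0 and 26.45 TPM to 47.3 and 66.0 TPM (limma adjusted p = 0.025). MMP1, an interstitial collagenase, rose from 1.45 and 1.16 TPM to 9.46 and 35.35 TPM (limma adjusted p = 0.0355). MMP13, another collagenase, rose from 0.663 and 0.808 TPM to 5.97 and 6.64 TPM (limma adjusted p = 0.0111). In TGFBR2 and MMP1 knockout 2 was well above knockout 1, while in MMP13 the knockouts were close. PTGS2, an inducible cyclooxygenase, rose from 0.355 and 0.282 TPM to 2.26 and 2.60 TPM (limma adjusted p = 0.0211), and KRT4 was the other called gene. ERBB2, a receptor tyrosine kinase gene, had 58.7 and 60.1 TPM in control and 49.1 and 43.97 TPM in knockout cells (limma adjusted p = 0.0578). With a minimum of 5 TPM, 3 of 5 tested genes of this list rose and 1 fell, where 12.2% of all tested genes rose and 14.6% fell. MMP1 and MMP13 passed that minimum only through the knockouts, so they could only rise, and the count shows nothing further.

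Of 14 genes listed as targets of ETS1 and ETS2 8 were tested, 5 rose and none fell, and the median log2 fold change was 1.45. Over all tested genes 9.06% rose and 8.67% fell. MMP9 passed the minimum only through the knockouts, and over the other 7, of which 4 rose, the median was 1.42. That median is the value of ANPEP, which was high in knockout 2 alone. The next lower and higher values were 0.85 for PLAU and 1.48 for TIMP1. TIMP1, an inhibitor of matrix metalloproteinases, rose from 178.0 and 174.7 TPM to 471.8 and 514.3 TPM (limma adjusted p = 0.00569). PTHLH, which encodes parathyroid hormone-related protein, rose from 2.58 and 2.38 TPM to 10.6 and 11.7 TPM (limma adjusted p = 0.0108). MMP1, also on the ELF3 list, MMP9 and the urokinase gene PLAU were the other 3. ANPEP, an aminopeptidase gene, had 7.36 and 5.73 TPM in the controls, 4.57 TPM in knockout 1 and 71.2 TPM in knockout 2, and was not called. Without knockout 2, 7 genes were tested, 3 rose and the median was 0.79.

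Of 19 genes known as GABP targets all were tested, 1 fell and none rose, with a median log2 fold change of -0.068. Over all tested genes 8.67% fell and 9.06% rose. SDHC, a subunit of succinate dehydrogenase, fell from 214.0 and 225.6 TPM to 167.3 and 146.0 TPM (limma adjusted p = 0.0321). TFAM, which packages mitochondrial DNA, had 26.3 and 18.7 TPM in control and 14.3 and 10.5 TPM in knockout cells (limma adjusted p = 0.0677). TFB2M, a mitochondrial transcription factor, had 39.4 and 37.7 TPM in control and 27.2 and 19.1 TPM in knockout cells (limma adjusted p = 0.0541). For COX7B, a subunit of cytochrome c oxidase, the log2 fold change was -0.26 (limma adjusted p = 0.0817). Over the 19 genes, both knockouts were below both controls in 11 and above them in 2, where 39% and 29.2% of all tested genes were. Without knockout 1, where 36.4% of all genes were called, 1 of the 19 rose and 6 fell. With the GC trend removed none was called by limma, with 7 at an unadjusted p under 0.05. In that fit 5707 of all 15815 tested genes were at an unadjusted p under 0.05.

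In the epithelial program, a list of transcription factor, junction and keratin genes, 16 of 29 genes were not tested, among them CDH1, EPCAM and GRHL2. Of the 13 tested, CLDN4, KLF4, KRT18, KRT7 and SPINT2 rose, and CRB3 and AP1M2 fell. Over all tested genes 9.06% rose and 8.67% fell. The median log2 fold change was -0.061. KRT7 passed the minimum only through the knockouts, and over the other 12, of which 4 rose, the median was -0.12. CRB3, an apical polarity gene, fell from 16.4 and 14.7 TPM to 3.30 and 0.840 TPM (-2.55, limma adjusted p = 0.027), and like ELF3 was lowest in knockout 2. CLDN4, a tight junction gene, rose from 32.96 and 30.8 TPM to 113.2 and 129.8 TPM (1.90, limma adjusted p = 0.00667). KLF4, an epithelial transcription factor, rose from 7.64 and 6.56 TPM to 18.9 and 19.9 TPM (1.34, limma adjusted p = 0.0135).

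Leaving out a control removed most calls over all genes, and those of these lists with them. Without control 1, limma called 0 of 15 partners, 0 of 8 ELF3 targets, 1 of 8 targets of ETS1 and ETS2, 0 of 19 GABP targets and 1 of 13 epithelial genes, and without control 2 the counts were equal. In both fits the median log2 fold changes of these lists kept their signs, except that of the epithelial program. Without control 1 the median of the epithelial program turned slightly positive.

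**Figure D5:**
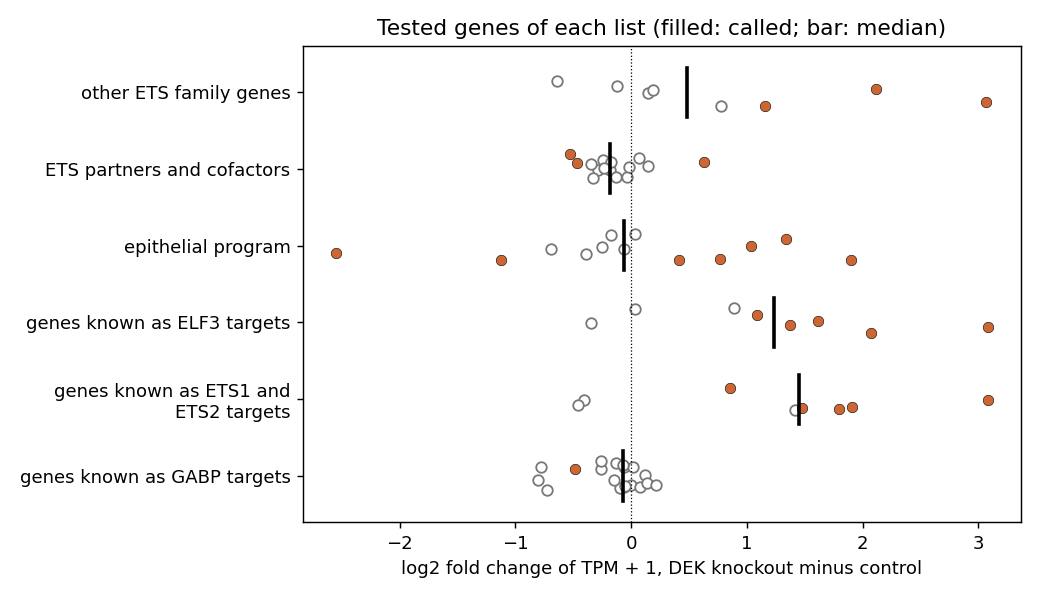
Log2 fold change of TPM + 1 (knockout minus control) of each tested gene in 6 lists; filled points were called, open points were not, and the bar is the list's median. The medians are 1.23 for the ELF3 list, 1.45 for the targets of ETS1 and ETS2 and -0.068 for the GABP list. Genes that passed the minimum only through the knockouts could only lie to the right of 0. Without them the medians of the ELF3 list and of the targets of ETS1 and ETS2 are 0.56 and 1.42. CRB3 in the epithelial program is lowest at -2.55.

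The genes with a profile most like that of ELF3 were found by the root mean square distance between log2(TPM + 1) values, centred on each gene's mean over 4 libraries, among 11221 genes with at least 5 TPM in the higher group. PDZK1, a scaffold gene for apical transporters, was nearest, at a distance of 0.0848, with 140.8 and 145.5 TPM in control and 24.0 and 8.93 TPM in knockout cells. Other near genes were the GDNF coreceptor gene GFRA1 (distance 0.229), the retinaldehyde dehydrogenase gene ALDH1A1 (0.241) and the glyoxylate pathway gene HOGA1 (0.255). With 4 libraries many genes can share a profile, and the distances describe no more than that.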

How the data were processed

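RNA from 4 libraries (2 control, 2 DEK knockout, grouped by title) was sequenced. The authors deposited 1 table of TPM in which each column sums to 1000000, so values are relative within a library. STAR 2.7.8a, cutadapt 1.18, DESeq2 1.36.0, featureCounts 2.0.1 and hg38 appear in the submitters' processing notes, with no step assigned. For the annotation, lengths and strand setting behind the TPM, the sources used here give nothing.

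Positions of symbols were looked up in GENCODE release 29 (54345 by name, 2221 by other symbols) with coordinates counted from 1, as were exon lengths and GC content. Genes reaching 1 TPM in 2 or more libraries (15815) were analysed as log2(TPM + 1) using limma 3.58.1 (R 4.3.3), with group alone in the model, a prior variance that depends on mean level and Benjamini-Hochberg adjustment over all of them at 0.05. This scale understates log2 changes of low genes, while fold values are ratios of mean TPM. The procedure was tested on simulated data.

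TPM of low genes falls on steps, which gave estimates of depth and read numbers. Below 200 estimated reads, 52.7% to 55.8% of values per library were whole to within 0.02, so other read numbers are approximate.

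The 10 genes and all lists were chosen with earlier results of these data known, and no list was tested as a set. The rule for named genes took the 10, DEK, tested family genes, up to 4 genes of each other list by smallest p, genes overlapping or next to ELF3 and the 5 most like it. KRT4, CCL20, PLAU, ANPEP, ERBB2, KRT7, SPINT2, AP1M2, CDH1, EPCAM, GRHL2, PAX8, ATP5PF, SPDEF, the family genes listed at 0 and the called neighbours of the ETS genes were chosen after their values were seen. Some genes that the rule takes are not reported here. Alternatives changed the pseudocount, minimum TPM, scaling, variance prior, threshold, a replicate block, GC and chromosome corrections and the libraries included.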

Additional observations from a re-analysis of the deposited data

How the results depend on the processing

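The number of genes called, 2804, was 26 with no minimum TPM, 1437 with a single prior variance, 90 at a threshold of 0.01 and 47 to 5510 with 1 library left out (47 without control 1, 51 without control 2, 5510 without knockout 1). Of the 9 ETS genes tested, limma called 4, but 2 with a single prior variance, 0 with no minimum and 0 at a threshold of 0.01, and 0 to 7 with 1 library left out. The 0 came from leaving out control 1 or control 2. ELF3 was not called with no minimum or at the threshold of 0.01, settings that do not enter its log2 fold change (-3.15). With 1 library left out it lay between -3.92 and -2.38. It was called in 11 of 15 alternatives. With 1 library left out, signs turned for ETS2 (-0.036 to 0.21), ERF (-0.23 to 0.058) and ETV2 (-0.46 to 0.22), none of which was called. The cause of these changes was not tested. With the replicate number as a block, 2971 genes and 5 ETS genes were called, GABPA being the added one. Deviations of same-numbered libraries correlated at 0.0989 over genes, and the labels do not say that the numbers pair the libraries. Precision is limited by the 2 libraries per group.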
